A study of Mus musculus with 22 samples.

Results

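The genes described here encode the G1 cyclins, their kinases and a group of their inhibitors: Ccnd1, Ccnd2, Ccnd3, Ccne1, Ccne2, Cdk4, Cdk6, Cdkn1b, Cdkn1c and Cdkn2b. They are listed here by name, and they are 10 of the 52636 genes measured in 22 RNA-seq libraries of mouse intestinal organoids. All 10 passed the filter on low values in each comparison. Their level in a library is given as normalised reads, scaled by the authors to 20 M reads per library and not divided by gene length.

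The study asked how cold atmospheric plasma (CAP), an ionized gas that produces reactive oxygen and nitrogen species, acts on intestinal stem cells grown as organoids. Organoids are spheres of epithelium that grow from crypt cells in a matrix with EGF, Noggin and R-spondin 1. Each organoid line came from the adult duodenum of 1 wild-type CD1 mouse aged 2 months, lines 1 and 2 from males and lines 3 and 4 from females. Line 1 was used at passage 12, line 2 at passage 14, and lines 3 and 4 are labelled passage 4.

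Untreated organoids were sequenced from lines 1, 2, 3 and 4 (n = 4), and each of the 6 treated groups from lines 1, 2 and 4 (n = 3), so that line 3 is only in the untreated group. Plasma power was 50 W and the plasma ran for 60 s. For direct CAP the jet met the culture itself on day 1 after replating, and the groups are labelled 30 min and 24 h. In indirect CAP, organoids that had met no plasma received medium taken from a treated organoid culture, and in the plasma-activated medium (PAM) groups they received medium treated without organoids, in both cases from day 1 or from day 2. By the study's methods organoids were harvested on day 3. For direct CAP labelled 30 min the sources do not settle whether 30 min passed until the medium was replaced or until harvest, so its values may be early ones or belong to day 3. The labels give 30 min for the day 1 indirect CAP and PAM groups and 24 h for their day 2 groups, whereas the study's methods give 24 h for all of them. By the methods, which are followed here for the exposure time, the day 2 groups were harvested at the end of their exposure and the day 1 groups a day later, so the day of exposure and the time since exposure cannot be told apart.

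In G1, D-type cyclins bind CDK4 or CDK6 and begin to phosphorylate RB, which releases E2F transcription factors. E2F factors then raise the E-type cyclins, which activate CDK2 and carry the cell into S phase. CIP/KIP proteins such as p27 (Cdkn1b) and p57 (Cdkn1c) restrain the CDK2 complexes, and INK4 proteins such as p15 (Cdkn2b) keep CDK4 and CDK6 from their cyclins. In the intestine this switch separates the dividing stem and transit-amplifying cells of the crypt from the differentiated cells that leave it.

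The libraries held an estimated 19.4 to 28.7 M reads, and the lowest value of any of the 10 genes, 48 for Ccne1, rested on about 52.1 reads, a counting error of 13.9%. The summed level of 5 epithelial markers was 82211 to 145331, against 2 to 17 for 4 fibroblast markers, 2 to 28 for 2 endothelial markers and 19 to 99 for 3 leukocyte markers. The label calls the cells stem cells, and the summed level of Lgr5, Olfm4, Smoc2, Ascl2 and Axin2 was 32557 to 38876 in untreated libraries, 20274 to 32015 after direct CAP for 30 min, 1306 to 15040 in the 9 libraries given 24 h of exposure from day 1 and 757 to 3953 in the day 2 groups. Differentiated cells were present too. The summed level of 4 Paneth cell markers was 20896 to 29593 in untreated libraries, 3648 to 18145 in those 9 and 3686 to 22402 in the day 2 groups. That of 4 goblet markers was 72214 to 128995 untreated, 73949 to 162603 in those 9, 54313 to 83620 after indirect CAP from day 2 and 15784 to 43005 after PAM from day 2. The sum of 4 enterocyte markers was 66874 to 86828 untreated, 59493 to 104954 in those 9, 88640 to 91258 after indirect CAP from day 2 and 112031 to 126013 after PAM from day 2. For 4 enteroendocrine markers it was 1735 to 2856 untreated, 1240 to 7907 in those 9 and 2628 to 4641 in the day 2 groups. For 3 tuft markers it was 84 to 133, 70 to 107 and 38 to 72. The epithelial sum was 82211 to 92997 untreated, 95567 to 132897 in those 9 and 94674 to 145331 in the day 2 groups. The leukocyte sum was 19 to 42 in untreated libraries and 43 to 99 in those 9, and the part of these other cell types in the results was not tested. In bulk RNA, fewer cells of a type and less RNA per cell cannot be told apart. The untreated library labelled line 1 resembled treated libraries of line 2 more than those of its own line (median correlation of deviations 0.68 against 0.21), and the untreated library labelled line 2 resembled treated line 1 (0.50 against 0.24). Both are untreated, so the unpaired tests do not depend on which is which, but fits with the line as a block do. All comparisons with untreated organoids share the same 4 untreated libraries.

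Levels can be compared between genes only per kb of annotated exon. On that scale the untreated organoids held most Cdk4, at 1675 ± 86.5 normalised reads per kb (SD, n = 4), followed by Ccnd2 at 1440 ± 277, whose libraries overlapped with those of Cdk4. Ccnd1 at 913 ± 95.1, Cdkn2b at 657 ± 57.3, Cdk6 at 363 ± 38.4 and Cdkn1b at 277 ± 17.0 came next, each with no overlap with the gene after it. The lowest 4, Ccnd3, Ccne1, Cdkn1c and Ccne2, lay between 119 and 130 in the mean and overlapped with their neighbours. In the 3 groups given 24 h of exposure from day 1 the order began with Ccnd2 and then Ccnd1, without overlap between them, and Cdk4 ranked 3 or 4. After PAM from day 2, Cdkn2b had the highest mean, at 1361 ± 359 (n = 3), ahead of Ccnd2 at 885 ± 481, and the libraries of the first 6 genes in the order overlapped with those of their neighbours.

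**Figure D1:**
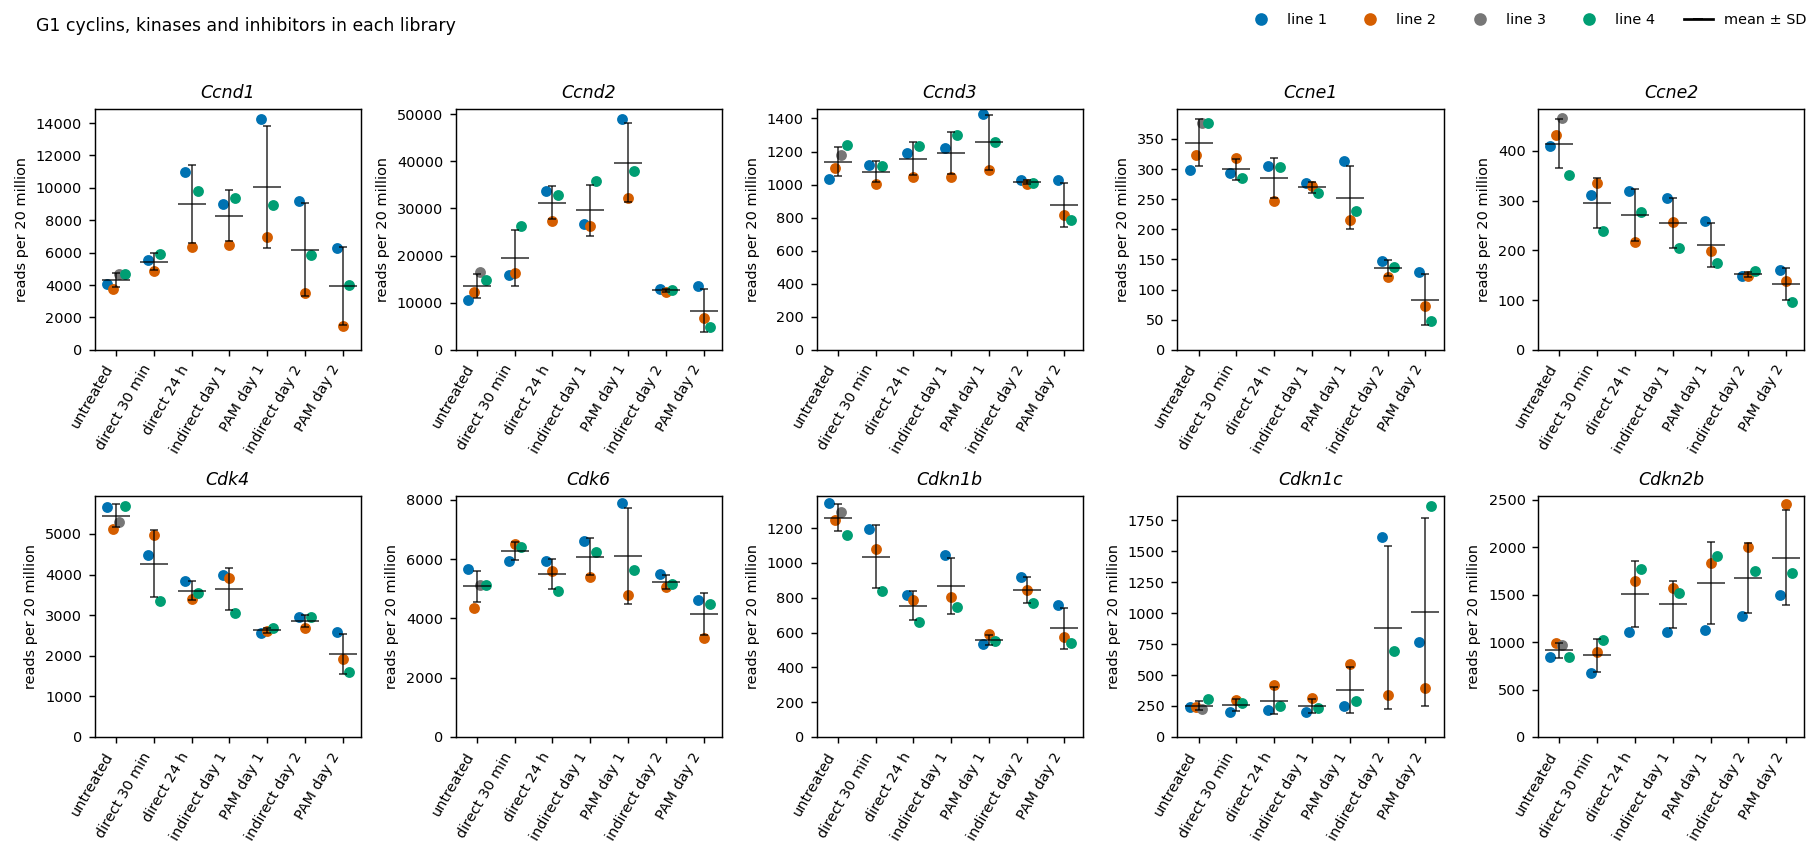
Level of each gene in every library, in reads scaled to 20 M per library on a linear axis from 0, by group, with a point for each library coloured by organoid line and bars for the mean ± SD (n = 4 untreated, n = 3 in each treated group). Ccnd1 and Ccnd2 had their highest means in the 3 groups given 24 h of exposure from day 1, Ccne1 and Ccne2 were lowest in the day 2 groups, and the 3 libraries of each day 2 group were spread widely for Cdkn1c.

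Sequence before the transcription start was at hand for 6 of the genes (Cdkn2b, Cdk6, Cdkn1b, Ccne1, Cdk4 and Ccnd3), in 7 windows of 250 bases before to 50 bases after the start (RefSeq, GRCm38.p6). Each was searched on both strands for an E2F motif (TTTCCCGC, TTTGGCGC, TTTCGCGC or TTTGCCGC), an AP-1 motif (TGANTCA), a CRE (TGACGTCA) and a TCF motif (CTTTGAT or CTTTGTT). Of all 32851 promoter windows of that length, 2.26% held the E2F motif, 7.81% the AP-1 motif, 1.79% the CRE and 9.33% the TCF motif. The CRE was found in Cdkn2b, from 46 to 39 bases before the start, and it reads the same on both strands. A TCF motif was found on the opposite strand of Cdk4, from 52 to 46 bases before the start. The other 5 windows held none of these letters. The stretches of Cdk4 and Cdkn2b that hold the matches are shown, with the match in capitals:
Cdk4, chr10:127063415-127063524, plus strand: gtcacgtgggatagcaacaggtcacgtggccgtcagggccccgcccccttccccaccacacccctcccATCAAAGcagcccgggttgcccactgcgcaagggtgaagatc
Cdkn2b, chr4:89311043-89311152, minus strand: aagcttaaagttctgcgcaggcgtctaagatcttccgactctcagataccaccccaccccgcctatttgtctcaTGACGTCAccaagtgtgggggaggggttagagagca
A match of letters is a description and not a bound site.

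Exposure to CAP for 24 h from day 1 (direct, indirect and PAM libraries together, n = 9) raised Ccnd1 and Ccnd2 and lowered Cdk4, Ccne2 and Cdkn1b against untreated organoids (n = 4). Cdkn2b also rose. The 9 treated libraries come from 3 mice, 3 from each, and the pooled fit has no term for the line. It takes the 9 as independent, so its SEs and adjusted p-values may be too small. This holds for every limma result over the 9 libraries given below without a block, and for the shares of all genes called. There are 2 thresholds here. The stricter asks for an adjusted p under 0.01 together with a change of at least 2-fold, and the looser for an adjusted p under 0.05 at any fold, both from limma with Benjamini-Hochberg adjustment over all genes tested. At the stricter threshold 2 of the 10 genes were called, Ccnd1 and Ccnd2, where 6.34% of 18490 tested genes were. At the looser threshold 3 genes rose (14.8% of all genes did) and 4 fell (18.7% of all genes did), and Ccnd3, Cdk6 and Cdkn1c passed neither. For 3 genes every treated library lay above every untreated one, against 7.16% of all genes, and for 3 genes every treated library lay below, against 10.5%. The median log2 fold change was 0.14 over the 10 genes and -0.05 over all genes tested.

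The treated groups taken one by one gave the following counts. After direct CAP for 24 h, Ccnd1 and Ccnd2 passed the stricter threshold (2.17% of all genes did), 3 genes rose at the looser one (7.05%) and 3 fell (10.2%). After indirect CAP from day 1 only Ccnd2 passed the stricter threshold (1.31%), with 3 up (10.2%) and 3 down (10.4%) at the looser one. After direct CAP for 24 h the stricter calls had adjusted p-values of 0.0093 for Ccnd1 and 0.0044 for Ccnd2 by limma. After indirect CAP that of Ccnd2 was 0.0076. In these 2 groups the calls were lost when any of several libraries was left out. Thus 0 genes were left without untreated line 1, 2 or 4, or without line 1 or 4 of the treated group, or, for indirect CAP, without untreated line 3. Without untreated line 3, direct CAP for 24 h kept 1. Without line 4 of indirect CAP, 3 genes and not 6 passed the looser threshold. The share of all genes called was not taken in any fit that left out a library, here or below. Whether such losses were particular to these genes was not tested. PAM from day 1 gave 4 stricter calls (10.2%), Ccnd1 and Ccnd2 up and Cdk4 and Cdkn1b down, and at the looser threshold 3 up (15.2%) and 4 down (26.6%). In the day 2 groups both E cyclins passed the stricter threshold and neither Ccnd1 nor Ccnd2 did. There were 2 stricter calls after indirect CAP (11.9%), Ccne1 and Ccne2 down, and 5 after PAM (17.3%), where Ccne1, Ccne2, Cdk4 and Cdkn1b were down and Cdkn2b up. Their looser counts were 2 up (20.3%) and 4 down (23.5%) for indirect CAP and 2 up (18.5%) and 5 down (29.1%) for PAM. Without untreated line 1, PAM from day 2 gave 3 stricter calls.

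**Figure D2:**
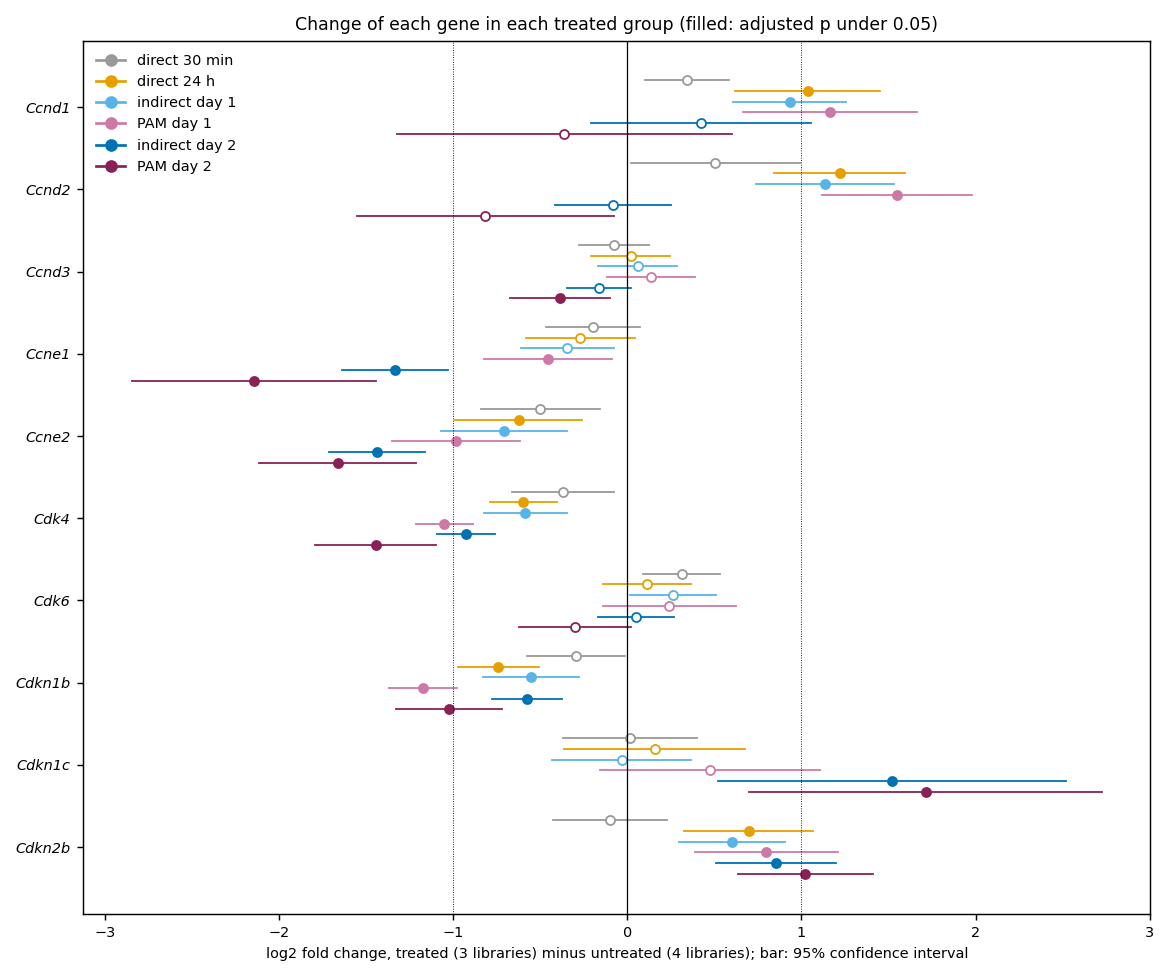
Log2 fold change of each gene in each treated group (n = 3) against untreated organoids (n = 4), with its 95% confidence interval as a bar, filled points for an adjusted p under 0.05 and dotted lines at a 2-fold change. The Ccnd1 and Ccnd2 intervals of the 3 groups given 24 h of exposure from day 1 lie above 0, and those of Ccne1 and Ccne2 in both day 2 groups lie below -1.

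Ccnd1 encodes cyclin D1, the D cyclin best known as a growth factor and Wnt response gene (ENSMUSG00000070348, chr7:144929931-144939925 on GRCm38, minus strand). The untreated libraries of lines 1, 2, 3 and 4 held 4072, 3778, 4665 and 4680 normalised reads. Lines 1, 2 and 4 held 10951, 6333 and 9786 after direct CAP for 24 h, 9003, 6464 and 9368 after indirect CAP from day 1 and 14236, 6940 and 8933 after PAM from day 1. All 9 libraries were above all 4 untreated ones, and the log2 fold change over the 9 was 1.04 ± 0.18 (SE, adjusted p = 0.0011), from 0.93 in indirect CAP to 1.16 in PAM. Without untreated line 2, or without line 1 of PAM from day 1, only 1 gene and not 2 passed the stricter threshold in this comparison. With the line as a block the PAM change was 1.21 with an adjusted p of 0.0101, just past the stricter limit. In the day 2 groups the libraries of lines 1, 2 and 4 held 9212, 3497 and 5863 after indirect CAP and 6281, 1468 and 4016 after PAM. Those ranges span the untreated one, and neither group passed a threshold (log2 fold changes 0.42 ± 0.28 and -0.36 ± 0.42). Line 2 held the least Ccnd1 in each of the 6 treated groups.

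Ccnd2, the gene of cyclin D2 (ENSMUSG00000000184, chr6:127125162-127152193, minus strand), had the largest rise of the 10 in the 9 libraries from day 1. Its untreated libraries held 10559, 12339, 16417 and 14863. Lines 1, 2 and 4 held 33614, 27245 and 32785 after direct CAP for 24 h, 26791, 26221 and 35831 after indirect CAP from day 1, and 48887, 32303 and 37948 after PAM from day 1. The lowest of these 9 was 26221 and the highest untreated library 16417, and the log2 fold change over the 9 was 1.30 ± 0.16 (SE, adjusted p = 0.00013), a 2.46-fold rise. From day 2 the indirect CAP libraries held 13017, 12254 and 12611, inside the untreated range, with a log2 fold change of -0.08 ± 0.15 that turned to 0.06 when libraries were scaled to their medians and to 0.02 with the line as a block. After PAM from day 2 line 1 held 13446 and lines 2 and 4 held 6675 and 4863, below every untreated library, for a log2 fold change of -0.82 ± 0.32 (adjusted p = 0.067).

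Both genes share exon with a gene on the opposite strand, and whether reads were counted by strand is not given in the sources used here. Oraov1 (also named Lto1) shares 1100 bp, 23.4% of the annotated exon of Ccnd1, and its mean went from 1748 in untreated libraries to 3441, 3147 and 3794 in the day 1 groups exposed for 24 h. Gm43126 shares 372 bp with Ccnd2 and went from 1034 to 2523, 2423 and 3330. The means of Ccnd2 in those groups were 31215, 29614 and 39713. The part of the overlapping genes in the Ccnd1 and Ccnd2 values was not tested.

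Ccnd3, which encodes the remaining D cyclin (ENSMUSG00000034165, chr17:47505051-47599691, plus strand), stayed between 1005 and 1424 in the untreated libraries and the 4 day 1 groups, with a log2 fold change of 0.07 ± 0.09 over the 9 libraries (95% confidence interval -0.12 to 0.26). After PAM from day 2 it held 1029, 814 and 783 in lines 1, 2 and 4 against 1035 to 1240 untreated, a fall of 0.39 ± 0.12 on the log2 scale (adjusted p = 0.033). That call was lost with the line as a block (adjusted p = 0.11), with median scaling (log2 fold change -0.05), and without untreated line 2, 3 or 4 or PAM line 2 or 4.

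Per kb of exon, Ccnd1, Ccnd2 and Ccnd3 made up 37.0% ± 2.8, 57.7% ± 3.2 and 5.27% ± 0.44 of the 3 D cyclins in untreated organoids (SD, n = 4). In the 9 libraries given 24 h of exposure from day 1 the shares were 34.1% ± 3.5, 63.4% ± 3.5 and 2.48% ± 0.29. The Ccnd3 share was lower in all 9, from 1.94% to 2.84% against 4.69% to 5.60% (exact permutation test, two-sided, p = 0.0028, the smallest this design can give, adjusted over the 3 shares 0.0084). The share is a part of the sum, in which Ccnd1 and Ccnd2 rose. The level of Ccnd3 itself changed by 0.07 ± 0.09 on the log2 scale (adjusted p = 0.56, limma). The Ccnd2 share was higher by 5.69 percentage points (exact permutation p = 0.022, adjusted 0.034), but this was no longer past 0.05 without untreated line 1, 2 or 4 (adjusted p 0.11, 0.068 and 0.082). The Ccnd1 share differed by less than the test could show (exact permutation p = 0.17). These tests take the 9 libraries as independent although they come from 3 mice that also gave untreated libraries, so their p-values are too small. With the treated libraries averaged within each line, an alternative added after the data had been seen, the Ccnd3 share was 2.34%, 2.66% and 2.44% in lines 1, 2 and 4, still below all 4 untreated libraries. The exact permutation p was then 0.057, the smallest 3 against 4 allow (adjusted 0.17), and 0.11 for Ccnd2 (adjusted 0.17). In the day 2 groups the make-up differed between lines: after PAM the Ccnd2 share was 49.6% in line 1, 63.7% in line 2 and 35.4% in line 4.

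**Figure D3:**
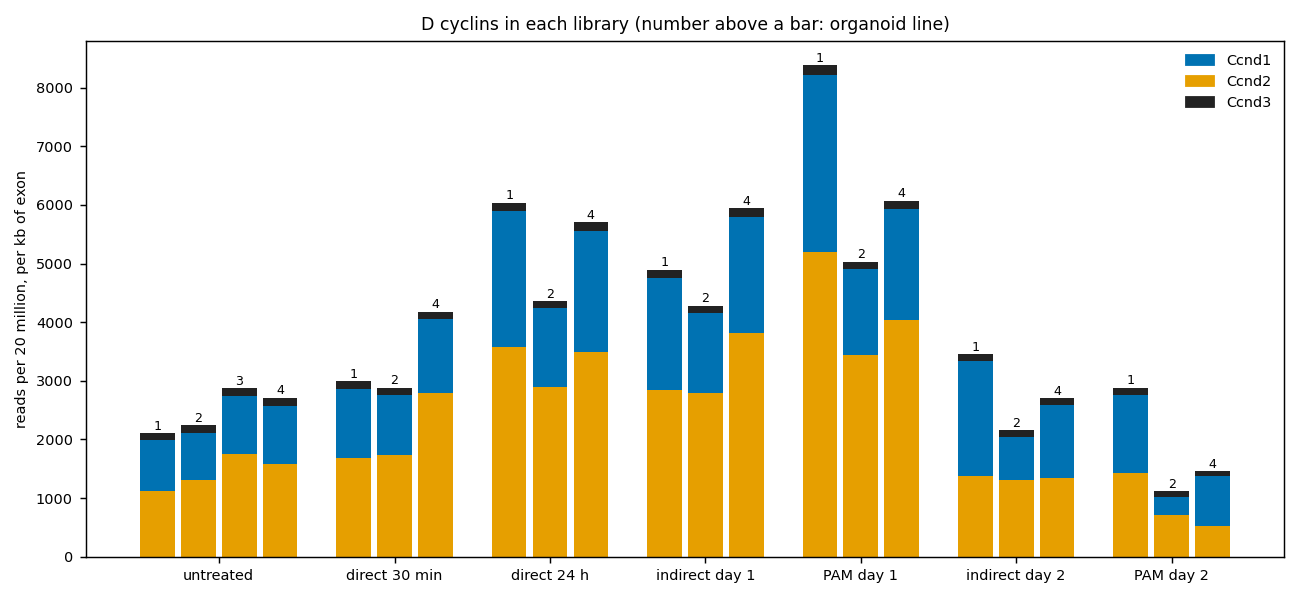
Summed D cyclin level in each library, in normalised reads per kb of exon on a linear axis from 0, with the height split between Ccnd1, Ccnd2 and Ccnd3 and the organoid line above each bar. The sum was 2105 to 2870 in untreated libraries, 4279 to 8381 in the 9 libraries given 24 h of exposure from day 1 and 1114 to 3457 in the day 2 groups.

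Ccne1, one of 2 E-type cyclins (ENSMUSG00000002068, chr7:38097984-38107534, minus strand), held 299, 324, 377 and 376 in untreated libraries of lines 1 to 4. Lines 1, 2 and 4 held 148, 121 and 138 after indirect CAP from day 2 and 130, 72 and 48 after PAM from day 2, all below every untreated library. Of all genes, 4615 of 17860 and 5777 of 17694 lay wholly below in these groups. The log2 fold changes of Ccne1 were -1.33 ± 0.13 (adjusted p = 0.00018) and -2.14 ± 0.31 (adjusted p = 0.0011), which left 39.4% and 24.2% of the untreated mean. With exposure from day 1 the libraries held 215 to 313, overlapping the untreated ones, and over the 9 the change was -0.36 ± 0.12 (adjusted p = 0.029). That call was lost with the line as a block (-0.31, adjusted p = 0.080), with median scaling (adjusted p = 0.051), and without untreated line 3 or 4 (adjusted p 0.093 and 0.096). The PAM day 1 change of -0.46 (adjusted p = 0.049) was likewise lost with the block (adjusted p = 0.14), with quantile or median scaling, and without untreated line 2, 3 or 4 or PAM line 2 or 4.

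The other E cyclin, Ccne2 (ENSMUSG00000028212, chr4:11191351-11204779, plus strand), was lower in every group exposed for 24 h. Its untreated libraries held 410, 432, 466 and 351. In the day 1 groups lines 1, 2 and 4 held 319, 216 and 277 after direct CAP for 24 h, 305, 258 and 204 after indirect CAP and 260, 198 and 175 after PAM. The 9 libraries were below the 4 untreated ones, with a log2 fold change of -0.77 ± 0.16 (adjusted p = 0.0024). After direct CAP for 24 h alone (-0.62, adjusted p = 0.033) the call was lost with the block (-0.57, adjusted p = 0.085) and without untreated line 1, 2 or 3 or treated line 2 or 4, and after indirect CAP from day 1 (-0.71, adjusted p = 0.020) without untreated line 2 or treated line 4. The day 2 groups held 148, 149 and 158 after indirect CAP and 161, 139 and 97 after PAM, with log2 fold changes of -1.44 ± 0.12 (adjusted p = 9.2e-05) and -1.66 ± 0.20 (adjusted p = 0.00056). Ccne2 shares 609 bp of exon with Ints8 on the opposite strand, whose mean was 1014 untreated and 683 and 721 in the day 2 groups, and its part in the Ccne2 values was not tested.

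The E cyclins moved beside a list of 18 DNA replication and mitosis genes, among them Mki67, Pcna and Mcm2. In the 9 libraries exposed from day 1, 17 of the 18 fell at the looser threshold (18.7% of all genes fell) and 0 rose, with a median log2 fold change of -0.68. In the day 2 groups all 18 fell, with medians of -1.46 after indirect CAP (23.5% of all genes fell) and -2.35 after PAM (29.1%). Over the same comparisons all 5 stem cell markers fell. Of the 4 Paneth cell markers 2, 1 and 2 fell, and of the 4 goblet markers 0, 2 and 3. What part these cell types, or fewer dividing cells, had in the cyclin values was not tested.

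Cdk4 encodes the kinase partner of the D cyclins (ENSMUSG00000006728, chr10:127063534-127067920, plus strand), and it fell where Ccnd1 and Ccnd2 rose. Untreated libraries held 5672, 5118, 5299 and 5684. Lines 1, 2 and 4 held 3852, 3396 and 3553 after direct CAP for 24 h, 3981, 3908 and 3060 after indirect CAP from day 1, and 2568, 2620 and 2690 after PAM from day 1. No treated library reached the lowest untreated one, and the change over the 9 was -0.74 ± 0.13 (adjusted p = 0.00092), with the PAM group alone at -1.05 ± 0.07 (adjusted p = 7.0e-05, -0.89 with median scaling). From day 2 the libraries held 2950, 2679 and 2946 after indirect CAP (-0.93 ± 0.07, adjusted p = 7.5e-05) and 2573, 1926 and 1611 after PAM (-1.44 ± 0.15, adjusted p = 0.00041), 52.5% and 37.4% of the untreated mean. Tspan31, which shares 641 bp with Cdk4 on the opposite strand, had means of 1434 untreated and 1103 to 1491 in the treated groups.

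Its relative Cdk6 (ENSMUSG00000040274, chr5:3341485-3531008, plus strand) passed neither threshold in any comparison with untreated organoids. Its untreated libraries held 5661, 4359, 5141 and 5137 and the 9 libraries exposed from day 1 held 4797 to 7898, a log2 fold change of 0.21 ± 0.12 (95% confidence interval -0.05 to 0.46). After PAM from day 2 it was 4618, 3346 and 4480, a change of -0.30 ± 0.14 that turned to 0.04 with median scaling.

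Cdkn1b encodes p27, which binds CDK2 complexes and also helps D cyclins assemble with CDK4 (ENSMUSG00000003031, chr6:134920401-134925513, plus strand). Untreated libraries held 1343, 1248, 1291 and 1160. In lines 1, 2 and 4 the values were 817, 786 and 663 after direct CAP for 24 h, 1048, 803 and 747 after indirect CAP from day 1 and 534, 591 and 549 after PAM from day 1, all below the untreated range. The change over the 9 was -0.82 ± 0.15 (adjusted p = 0.0015) and in PAM alone -1.17 ± 0.08 (adjusted p = 8.5e-05). After indirect CAP from day 1 (-0.55, adjusted p = 0.019) the call was lost without treated line 2 or 4. The day 2 groups held 919, 845 and 771 after indirect CAP (-0.58 ± 0.09, adjusted p = 0.0013) and 758, 576 and 540 after PAM (-1.03 ± 0.13, adjusted p = 0.00078). The PAM day 2 change was -0.83 with quantile normalization and -0.69 with median scaling, still past the looser threshold.

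Cdkn1c, the imprinted gene of p57 (ENSMUSG00000037664, chr7:143458339-143461050, minus strand), passed the looser threshold in both day 2 groups and in no day 1 group. Untreated libraries held 243, 241, 226 and 305, and the 9 libraries exposed from day 1 held 204 to 588, with a log2 fold change of 0.20 ± 0.24 (95% confidence interval -0.31 to 0.70). From day 2 lines 1, 2 and 4 held 1614, 337 and 697 after indirect CAP (1.52 ± 0.44, adjusted p = 0.023) and 767, 399 and 1860 after PAM (1.71 ± 0.44, adjusted p = 0.014). All 6 exceeded the untreated libraries, as was the case for 4048 of 17860 genes after indirect CAP and 3667 of 17694 after PAM. The size of the Cdkn1c change differed between lines, and the order of lines 1 and 4 was not the same in both groups. The indirect CAP call was lost without untreated line 2 or treated line 4 (adjusted p = 0.053 each). Line 2 held the most Cdkn1c in each of the 4 day 1 groups and the least in both day 2 groups. Gm44732 on the opposite strand shares 625 bp, 30.7% of the Cdkn1c exon, and its mean went from 167 untreated to 594 and 670 in the day 2 groups, with its part in the values not tested.

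Cdkn2b encodes the INK4 inhibitor p15, which responds to TGF-beta in many epithelia (ENSMUSG00000073802, chr4:89306299-89311039, minus strand). Untreated libraries held 844, 990, 973 and 844. In lines 1, 2 and 4 it was 1108, 1641 and 1766 after direct CAP for 24 h, 1107, 1571 and 1513 after indirect CAP from day 1, 1132, 1832 and 1910 after PAM from day 1, 1274, 2004 and 1752 after indirect CAP from day 2 and 1493, 2452 and 1731 after PAM from day 2. All 15 libraries were above the 4 untreated ones, and line 1 was the lowest in each of these 5 groups. Taken by group, 2008 of 17335 genes lay wholly above the untreated libraries after direct CAP for 24 h. From day 1 this held for 2976 of 17818 genes after indirect CAP and 2961 of 17357 after PAM. From day 2 it held for 4048 of 17860 and 3667 of 17694. The log2 fold change of Cdkn2b was 0.70 ± 0.15 over the 9 libraries from day 1 (adjusted p = 0.0041), 0.86 ± 0.15 after indirect CAP from day 2 (adjusted p = 0.0026) and 1.02 ± 0.17 after PAM from day 2 (adjusted p = 0.0021). After direct CAP for 24 h alone (0.70, adjusted p = 0.024) the call was lost without untreated line 1 or 4 or treated line 2 or 4, and after indirect CAP from day 1 (0.60, adjusted p = 0.020) without untreated line 4 or treated line 2 or 4.

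Of 34 other genes of G1 control, 4 rose (14.8% of all genes did) and 16 fell (18.7%) at the looser threshold in the 9 libraries exposed from day 1, with a median log2 fold change of -0.27. Indirect CAP from day 2 had 3 up (20.3%) and 18 down (23.5%), and PAM from day 2 had 3 up (18.5%) and 23 down (29.1%). Without further scaling the share that rose was thus below that of all genes in these 3 comparisons. In the groups taken singly the counts were 3 up (7.05%) and 12 down (10.2%) after direct CAP for 24 h, 2 up (10.2%) and 11 down (10.4%) after indirect CAP from day 1 and 4 up (15.2%) and 18 down (26.6%) after PAM from day 1. No gene called in the 9 libraries or the day 2 groups changed sign with quantile or median scaling, but with median scaling the counts were 5 up and 15 down, 5 up and 14 down, and 9 up and 15 down. With quantile normalization they were 5 and 15, 5 and 17, and 6 and 20. The share of all genes that rose is not given for these scalings, so whether the listed genes rose less often cannot be said there.

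Among the other inhibitors, Cdkn1a, which encodes p21 and is a p53 target, rose from 1935 to 4840 in the mean of the 9 libraries (log2 fold change 1.32 ± 0.10, adjusted p = 3.25e-06) and to 5889 and 6831 in the day 2 groups (1.59 and 1.80). Cdkn2c, the INK4 gene of p18, fell from 397 to 169 (-1.28 ± 0.20) and to 108 and 68.7 (-1.90 and -2.64). Cdkn2a, the source of p16 and p19ARF, went from 19.5 to 50 in the 9 libraries (1.48 ± 0.37, adjusted p = 0.0074) with overlapping groups, and did not pass in the day 2 groups. Cdkn2d was lower after PAM from day 2 (-1.05). The INK4 genes therefore did not move as one, with Cdkn2b and Cdkn2c called in opposite directions in all 3 comparisons.

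In the CDK2 arm, the kinase gene Cdk2 changed by -0.65 on the log2 scale in the 9 libraries from day 1, by -1.15 after indirect CAP from day 2 and by -1.71 after PAM from day 2. Ccna2 (cyclin A2) changed by -0.67, -1.53 and -2.41. Cks1b and Skp2, which act in the degradation of p27, changed by -0.64 and -0.99 in the 9 libraries and by -1.78 and -1.55 after PAM from day 2. Cdc25a passed in the day 2 groups (-0.31 and -0.40), and Fbxw7, which targets cyclin E for degradation, passed in none of the 3. Of the CDK-activating kinase genes, Ccnh fell by 0.32 in the 9 libraries and, with Cdk7, after PAM from day 2. These Ccnh and Cdk7 calls were lost with quantile or median scaling, and those of Cdc25a with median scaling.

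Of 10 E2F and DP genes, 7 fell in the 9 libraries (18.7% of all genes did), 8 after indirect CAP from day 2 (23.5%) and 9 after PAM from day 2 (29.1%). In these comparisons 0 of the 10 rose, where 14.8%, 20.3% and 18.5% of all genes did. E2f1, an activator, went from 399 to 252 in the 9 libraries (-0.68) and to 129 and 75.0 in the day 2 groups (-1.63 and -2.54). E2f8, a repressor, went from 1181 to 589, 333 and 218. E2f2, E2f6, E2f7 and Tfdp2 fell in all 3 comparisons and so did Tfdp1, while E2f4 passed in the day 2 groups and E2f3 after PAM from day 2. With median scaling the day 2 calls of E2f2, E2f4 and E2f3 were lost. The E2F and DP counts were then 6 down and 0 up after indirect CAP from day 2 and 6 down and 1 up after PAM from day 2. With quantile normalization they were 7 and 1, and 8 and 1. Among the pocket proteins that bind E2F, Rbl1 (p107) fell in all 3 (-0.49, -0.81 and -1.26), Rbl2 (p130) fell and Rb1 rose in the day 2 groups, Rb1 by 0.39 and 0.43, and the Rbl2 calls were lost with median scaling. Of the genes upstream, Foxm1 changed by -0.59, -1.34 and -2.12 and Mycn, at 29.8 untreated, by -2.15, -3.20 and -3.95. Myc fell after PAM from day 2 (-0.69, adjusted p = 0.041), a call lost with median scaling. Ccng1, a p53 target, and Ccndbp1 rose in the 9 libraries (1.19 and 0.31), and Ccng2 rose in the day 2 groups (0.62 and 1.07).

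**Figure D4:**
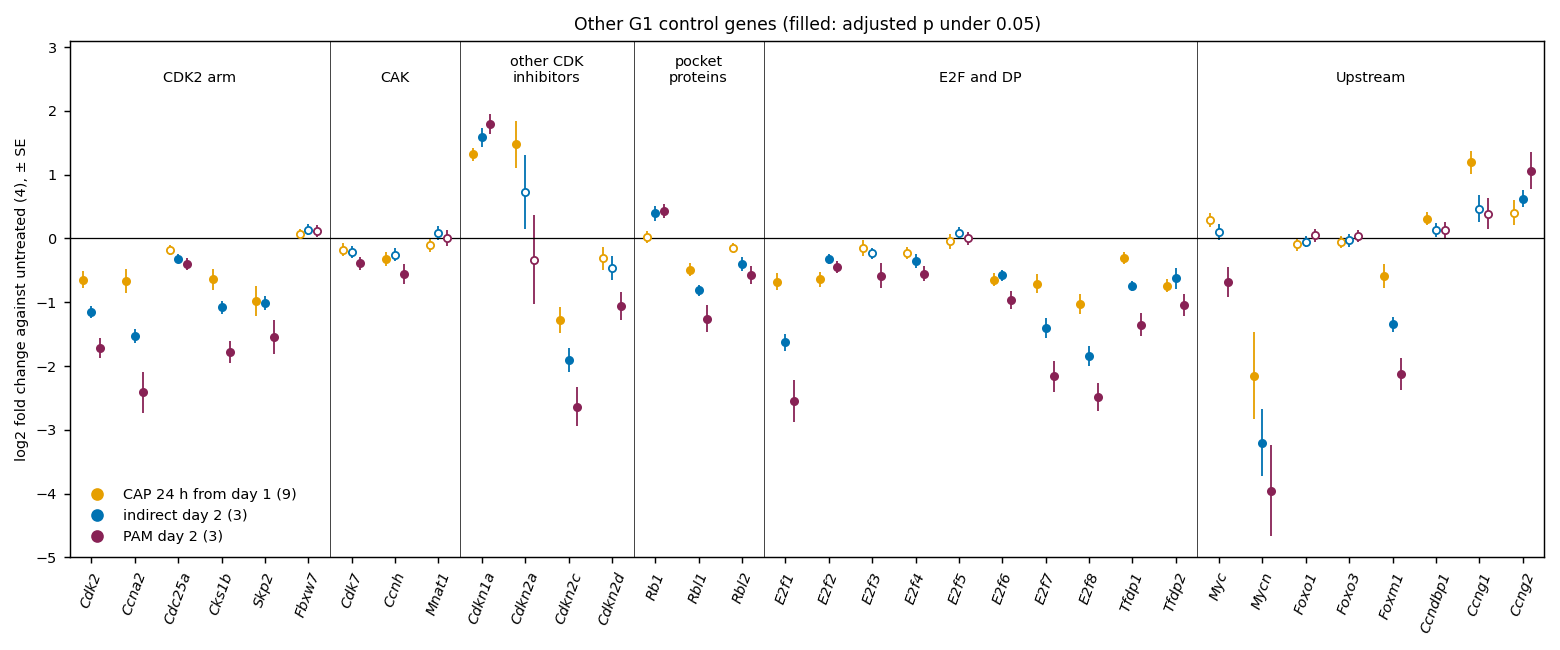
Log2 fold change against untreated organoids (n = 4), ± SE, of 34 other genes of G1 control grouped by role, for the 9 libraries given 24 h of exposure from day 1 and for the day 2 groups of indirect CAP and PAM (n = 3 each), filled where the adjusted p was under 0.05. CAK is the CDK-activating kinase. Cdkn1a lies above 1 and Cdkn2c below -1 in all 3 comparisons, and 7 of the 10 E2F and DP genes are filled and below 0 for the 9 libraries (18.7% of all genes fell there).

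In the direct CAP group labelled 30 min, 0 of the 10 genes passed either threshold by limma (0.00564% of all genes did at the stricter threshold, 0.00564% rose and 0.0% fell at the looser). At an unadjusted p under 0.05 there were 6, where 24.9% of all genes were. Of all 17731 genes tested, 2203 lay wholly above and 1988 wholly below the untreated libraries in this group. Ccnd1 held 5549, 4886 and 5888 in lines 1, 2 and 4, above every untreated library, with a log2 fold change of 0.34 ± 0.11 (adjusted p = 0.12). Ccnd2 held 15902, 16265 and 26315 (0.51 ± 0.21, adjusted p = 0.19) and Cdk6 5927, 6501 and 6404 (0.31 ± 0.10, adjusted p = 0.12). Ccne2 and Cdk4 lay below the untreated range, at 311, 335 and 238 (-0.50 ± 0.15, adjusted p = 0.12) and 4471, 4971 and 3360 (-0.37 ± 0.13, adjusted p = 0.14). Cdkn2b held 674, 892 and 1019, which spans the untreated range (95% confidence interval of the log2 fold change -0.43 to 0.23).

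Direct CAP for 24 h and for 30 min were also compared with each other. Without a block 0 of 10 genes passed the looser threshold (0.0% of all genes did) and 4 had an unadjusted p under 0.05 (21.4% of all genes). With the line as a block 3 passed it and were higher after 24 h, where 3.55% of all genes were: Cdkn2b by 0.80 (adjusted p = 0.0070), Ccnd1 by 0.70 (0.026) and Ccnd2 by 0.71 (0.0495). All 3 lines had more of each gene after 24 h. For each of them every 24 h library lay above every 30 min library, as was the case for 1295 of 17668 genes. Indirect CAP from day 1 did not separate from direct CAP for 24 h in any gene (0 of 10 at the looser threshold and at an unadjusted p under 0.05, against 0.0% and 6.95% of all genes), with differences from -0.19 to 0.19. PAM from day 1 gave 0 calls against direct CAP for 24 h (0.258% of all genes) and 2 genes at an unadjusted p under 0.05 (10.4% of all genes), Cdk4 at -0.45 ± 0.10 and Cdkn1b at -0.43 ± 0.13. Both were lower after PAM in libraries that did not overlap, as were 1791 of 17072 genes. PAM from day 2 gave 0 calls against indirect CAP from day 2 (0.0%) and 3 at an unadjusted p under 0.05 (9.48% of all genes), Cdk4 (-0.51), Cdk6 (-0.35) and Cdkn1b (-0.45). A p that misses the threshold with 3 libraries a group does not show that the media acted alike.

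Exposure from day 2 and from day 1 differed in the cyclins. Within indirect CAP, Ccnd2 was lower from day 2 by 1.22 ± 0.14 on the log2 scale (adjusted p = 0.019) and Ccne1 by 0.99 ± 0.13 (adjusted p = 0.023), 2 of 10 genes at the looser threshold against 3.37% of all genes. Both calls were lost without line 1 or 2 of the day 1 group or line 2 or 4 of the day 2 group (adjusted p 0.056 to 0.12). With the line as a block 7 genes passed, 5 lower from day 2 (14.3% of all genes) and 2 higher (9.27%), and Ccnd2 passed the stricter threshold (adjusted p = 6.4e-05, 3.46% of all genes). Ccnd1 (-0.51), Ccne2 (-0.73) and Cdk4 (-0.34) were then also lower and Cdkn1c (1.55) and Cdkn2b (0.26) higher from day 2. Within PAM the differences were larger, Ccnd2 at -2.37 ± 0.37 (adjusted p = 0.0503) and Ccne1 at -1.69 ± 0.37 (adjusted p = 0.065), but 0 genes passed without a block (0.0% of all genes), with 6 at an unadjusted p under 0.05 (26.8% of all genes). With the block 4 passed the looser threshold, Ccnd1, Ccnd2, Ccnd3 and Ccne1, all lower from day 2, as were 6.99% of all genes.

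Both media were also fitted together, with terms for medium and line, a comparison chosen after the data had been seen (6 libraries from day 2 against 6 from day 1). These libraries come from 3 mice, and the fit has no term for a day difference that varies between lines. It takes libraries of the same mouse and day as independent, so its SEs and adjusted p-values may be too small. At the stricter threshold 3 genes passed (6.06% of 18744 genes did): Ccnd2 at -1.79 ± 0.25 (adjusted p = 0.00041), Ccne1 at -1.34 ± 0.19 (adjusted p = 0.00040) and Ccnd1 at -1.02 ± 0.22 (adjusted p = 0.0045). At the looser threshold 2 genes were higher from day 2 (17.8% of all genes) and 7 lower (22.5%). The higher ones were Cdkn1c at 1.40 ± 0.42 (adjusted p = 0.021) and Cdkn2b at 0.24 ± 0.07 (adjusted p = 0.022), and Cdkn1b was the gene that passed neither (0.06 ± 0.08). Ccnd2 and Ccne1 were lower from day 2 in all 6 pairs of the same line and medium, and Ccnd1 in 5 of 6. How many of all genes were lower in all 6 pairs was not counted. Taken by medium, 2640 of 17987 genes lay wholly lower from day 2 in indirect CAP and 2940 of 17354 in PAM. Cdkn1c was higher in 5 of 6, from -0.56 in line 2 with PAM to 2.98 in line 1 with indirect CAP.

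**Figure D5:**
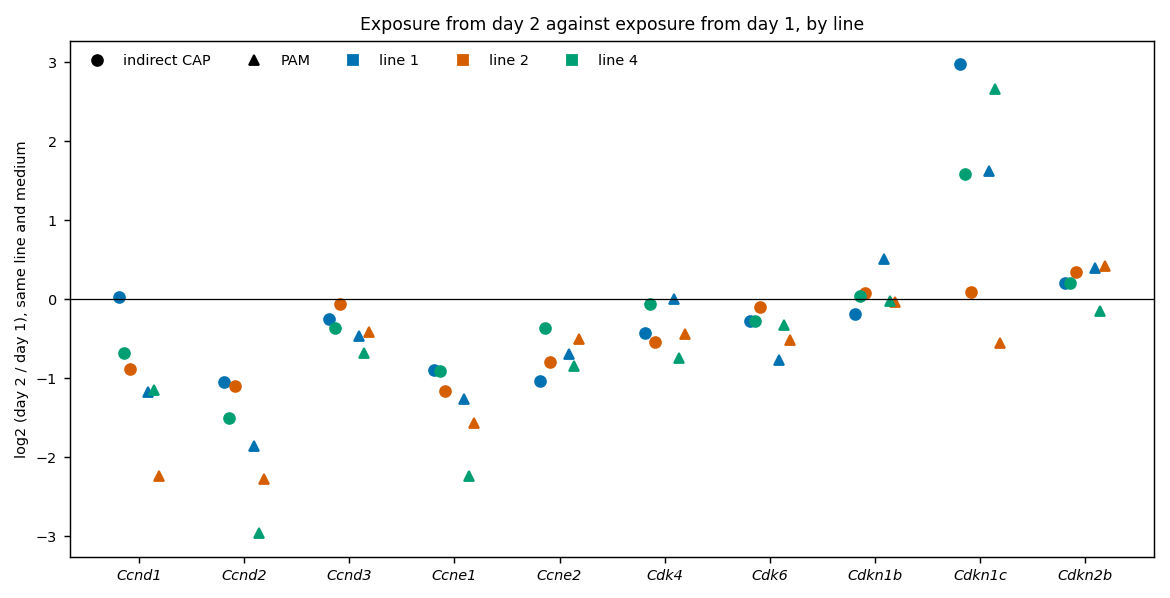
Log2 ratio of the level with exposure from day 2 to that with exposure from day 1, for each gene in the same organoid line and medium (circles indirect CAP, triangles PAM, coloured by line). All 6 points are below 0 for Ccnd2, Ccnd3, Ccne1, Ccne2 and Cdk6, and those of Cdkn1c run from -0.56 to 2.98. How many of all genes have all 6 points below 0 was not counted.

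As a description, the genes whose log2 level followed each member most closely over the 22 libraries were ranked by Pearson correlation among 11804 genes. Libraries share groups and lines here, so no p is given. Ccne1 ran with Rrm2 (r = 0.988), Esco2 (0.986) and Hmmr (0.984), which act in nucleotide supply, sister chromatid cohesion and the spindle. Cdk4 ran with Hmgn5 (0.990), Abhd14a (0.985) and Hmgb2 (0.985), and Ccne2 with Nap1l4 (0.973), Vrk2 (0.969) and Lsm6 (0.968). Cdkn1b was nearest to Wdr82 (0.971), Rbm15b (0.960) and Isg20l2 (0.957), Cdkn2b to Ggh (0.951), Nr1h4 (0.951) and Plscr1 (0.950), and Ccnd3 to Bcat2 (0.919), Epb41l2 (0.904) and Slc25a4 (0.898). For Ccnd1, Ccnd2 and Cdkn1c the closest gene was the one that overlaps on the opposite strand, Oraov1 (0.992), Gm43126 (0.997) and Gm44732 (0.998). The next were Pgap2 (0.941) and AC139579.1 (0.933) for Ccnd1, Mpzl2 (0.935) and Adamts15 (0.927) for Ccnd2, and Btg1 and Ptprj (0.883 each) for Cdkn1c. Cdk6 ran with Srgap2 (0.912), Pitpnm2 (0.911) and its own opposite-strand neighbour Gm17590 (0.90). Among the 10 genes, Cdk4 and Ccne2 were closest (r = 0.92), followed by Ccne1 and Ccne2 (0.89) and Cdk4 and Cdkn1b (0.88), and the lowest value was between Cdk4 and Cdkn2b (-0.78).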

How the data were processed

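RNA was sequenced from 22 libraries as paired-end reads of 100 bases. Per the labels, the authors used Trimmomatic 0.36, STAR 2.5.3a and HTSeq 0.9.1 with GRCm38.p4 (mm10). The deposited values are whole numbers, treated here as a score and not as counts, because the authors scaled each library to 20 M reads and each column sums to 20007540 to 20016513. Depth was estimated from the spacing of low values (checked on simulated data, error up to 0.274%). Tests used limma 3.58.1 in R 4.3.3 on log2(value + 1), fitted to the groups compared, for genes with 10 or more in at least 3 libraries, so fold changes of low genes are understated. Exon lengths came from GENCODE M21. Lines number the replicates, and same-numbered libraries come, by the labels, from the same mouse, which the untreated libraries of lines 1 and 2 did not bear out. Among treated libraries, deviations from the group mean correlated with a median of 0.74 within a line and -0.46 between lines. Taking off the mean of 3 libraries by itself pushes the value between lines below 0. With the block, untreated line 3 adds nothing. No 2 libraries were duplicates. Alternatives were quantile and median scaling, a pseudocount of 10, no filter, 1 fit over all groups, the block, and leaving out each library. The 10 genes, the lists and the tests were chosen with earlier results of these data known, and the text names all 10, the pathway genes past a threshold in the 9 libraries or a day 2 group, and the 3 genes most like each of the 10.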

Additional observations from a re-analysis of the deposited data

Results flagged for a closer look

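A difference between exposure from day 2 and from day 1 was past the looser threshold in indirect CAP for Ccnd2 (log2 difference -1.22) and for Ccne1 (-0.99), tested directly between the groups. For Ccnd2 in PAM every day 2 library lay below the untreated mean and every day 1 library above it (log2 difference -2.37), a difference that missed the threshold without the block (adjusted p = 0.0503, limma). In PAM 2940 of 17354 genes lay wholly lower from day 2 than from day 1. How many of all genes lay on opposite sides of the untreated mean was not counted. Line 1 of the day 2 group, at 13446, lay only just below that mean of 13544.5 and inside the untreated range. No library stood apart from its group for any of the 10 genes by Dixon's criterion in the 20 groups tested (untreated and the 9 libraries from day 1), of which chance flags about 1 in 20.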

How the results depend on the processing

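The 10 genes kept their direction wherever they were called, under all alternatives run. At an adjusted p under 0.05 with no fold limit, 7 genes were called in the 9 libraries from day 1, 6 after direct CAP for 24 h, 6 after indirect CAP from day 1, 6 from day 2, 7 after PAM from day 1 and 2 between the days of indirect CAP. The shares of all genes are given with each comparison above. With all 7 groups in one fit the stricter count was 1 for the 9 libraries, where 840 of 19370 genes were up and 437 down. It was 1 for direct CAP for 24 h (303 up and 146 down of all genes) and 0 for indirect CAP from day 1 (292 and 54). Between the days of PAM it was 2 (335 up and 547 down of all genes), with 6 at the looser threshold, which 4241 of the 19370 genes passed. Quantile normalization left 1 for direct CAP for 24 h, where 257 of 17335 genes were up and 161 down. Between the days of PAM the looser count was 1 with quantile normalization, median scaling or a pseudocount of 10, where 414, 591 and 170 of 17354 genes passed. With the line as a block (replicate block) 3 genes passed between direct CAP for 24 h and 30 min, 7 (1 at the stricter threshold) between the days of indirect CAP and 4 between the days of PAM. Beyond these and the calls named in the report the block changed no other call. With the 30 min group added, 1 gene passed the stricter threshold, and with the day 2 groups added 1, and 4 the looser. The share of all genes called was not taken for these larger fits. A loss of calls among the 10 genes therefore cannot be told there from a loss over all genes. Both media together gave 3 and 9 between days.

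Leaving out 1 library gave stricter counts of 1 to 2 for the 9 libraries, 0 to 2 for direct CAP for 24 h, 0 to 1 for indirect CAP from day 1 and 3 to 6 for PAM from day 2. The looser counts were 3 to 7 for indirect CAP from day 1, 0 to 4 between the days of indirect CAP and 0 to 2 between the days of PAM. For the last 2, 4 came without line 4 of indirect CAP from day 1, and 2 without line 1 of PAM from day 2. For the D cyclin share, Ccnd2 differed by 4.23 to 6.72 percentage points. With treated libraries averaged within each line, the differences of 5.69 points for the D cyclin share, Ccnd2 and -2.79 for the D cyclin share, Ccnd3 no longer passed (adjusted p = 0.17 each by exact permutation), in a design that could not reach 0.05. The Ccnd3 level was flat while Ccnd1 and Ccnd2 rose in the same sum, and the cause of those rises was not tested.

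Median scaling moved the median of all genes by 0.34 for PAM from day 2, 0.16 for PAM from day 1 and 0.14 for indirect CAP from day 2, and the stricter calls over all genes went from 1206 up and 1857 down to 2184 and 1158, from 838 and 937 to 1087 and 627, and from 1108 and 1019 to 1529 and 771. The deposited values are scaled and whole, so counts of reads are known only by estimate, and 3 libraries a group limit what the tests can show.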
